A study of Homo sapiens with 4 samples.

Results

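Heat shock proteins are chaperones, which bind unfolded or partly folded proteins, keep them from aggregating and help them fold. The set described here holds the HSP70, HSP110, HSP90, chaperonin and small heat shock protein genes, 2 heat shock transcription factor genes (HSF1 and HSF2), and genes of BAG proteins and HSP90 co-chaperones. Genes were taken by name from the authors' deposited table, by a pattern of HSP symbols plus a list of 13 named genes, and not by their values. This gave 47 symbols of the 24305 gene symbols that stand alone on a probe set. The pattern also takes 5 HSP90 symbols that end in P and that RefSeq lists as pseudogenes, and HSPA7, another pseudogene. In the text that follows they are counted among the 47 and described apart.

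Cells of MDA-MB-231, an established line from a human breast carcinoma without estrogen or progesterone receptors, spent 3 days in control or treated medium. In both, concentrated DMEM was brought to strength with 9 parts of hypotonic saline, after 24 hours in DMEM with 10% serum. For the treated medium, a BEFE unit (Bio-Electric Field Enhancement) had first applied its dc DEP EMF to the saline for 30 minutes. The control saline received no such exposure. Total RNA was measured on an Affymetrix whole-transcript array, with 1 column of log2 signal per medium at gene level and 1 at exon level, so there were 4 columns in 4 groups of 1. The labels speak of 5 biological replicates per group at the RNA quality check, with a RIN of 10, and do not say whether a column is 1 array, a pool or an average. Log2 signals are given for control first. No error or p-value could therefore be computed, no difference below has a replicate check, and each one describes these columns of values and not the media in general. In bulk RNA, fewer cells that express a gene and less of its RNA per cell cannot be told apart. Cells were plated in triplicate, per the labels, and how those wells relate to the columns is not given.

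In a resting cell, HSF1 is held inactive by chaperones. When unfolded proteins occupy those chaperones, HSF1 forms trimers and binds heat shock elements, repeats of nGAAn, in front of the inducible HSP70, HSP90 and small heat shock protein genes. Proteins of the endoplasmic reticulum have their own HSP70 and HSP90 forms, HSPA5 (BiP) and HSP90B1 (GRP94), whose genes are instead under the unfolded protein response and carry the ER stress element. HSP70 works in an ATP cycle in which J proteins load clients, and BAG and HSP110 proteins release nucleotide. STIP1 (HOP) passes clients on to HSP90.

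Promoter windows of 300 bases, 250 before and 50 after the gene start, were read from RefSeq (GRCh38.p14) and were found for 34 of the 47 genes. A total of 6 are shown because they belong to the genes on which the comparison turns, the inducible pair HSPA1A and HSPA1B, the constitutive HSPA8, the lower HSP110 gene HSPA4L, and HSPA5 and HSP90B1 of the endoplasmic reticulum. Capitals mark matches to the letters GAANNTTC or TTCNNGAA (heat shock element, a pair of units) in HSPA1A, HSPA1B and HSPA8, and to the ER stress element on either strand (CCAAT, any 9 bases, CCACG) in HSPA5 and HSP90B1. HSPA4L has no capitals because none of these letters occurred in its window.
HSPA1A (chr6:31815293-31815592, plus strand): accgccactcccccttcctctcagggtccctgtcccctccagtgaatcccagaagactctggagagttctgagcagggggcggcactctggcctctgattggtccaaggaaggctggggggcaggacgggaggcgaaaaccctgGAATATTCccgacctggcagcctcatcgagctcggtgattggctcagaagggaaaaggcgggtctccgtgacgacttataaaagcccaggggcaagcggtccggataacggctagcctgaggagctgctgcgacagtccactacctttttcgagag
HSPA1B (chr6:31827488-31827787, plus strand): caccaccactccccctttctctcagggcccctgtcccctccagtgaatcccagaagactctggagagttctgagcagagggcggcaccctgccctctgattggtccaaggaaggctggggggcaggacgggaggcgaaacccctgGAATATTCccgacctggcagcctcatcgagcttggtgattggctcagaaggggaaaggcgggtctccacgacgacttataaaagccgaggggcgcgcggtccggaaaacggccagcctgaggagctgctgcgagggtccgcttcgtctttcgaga
HSPA8 (chr11:123062087-123062386, minus strand): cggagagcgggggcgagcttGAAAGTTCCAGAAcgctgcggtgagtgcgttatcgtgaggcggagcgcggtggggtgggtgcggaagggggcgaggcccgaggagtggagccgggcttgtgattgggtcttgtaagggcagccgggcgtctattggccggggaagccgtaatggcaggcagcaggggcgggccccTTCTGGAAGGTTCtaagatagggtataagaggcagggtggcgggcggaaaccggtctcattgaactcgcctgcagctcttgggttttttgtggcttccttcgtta
HSPA4L (chr4:127781546-127781845, plus strand): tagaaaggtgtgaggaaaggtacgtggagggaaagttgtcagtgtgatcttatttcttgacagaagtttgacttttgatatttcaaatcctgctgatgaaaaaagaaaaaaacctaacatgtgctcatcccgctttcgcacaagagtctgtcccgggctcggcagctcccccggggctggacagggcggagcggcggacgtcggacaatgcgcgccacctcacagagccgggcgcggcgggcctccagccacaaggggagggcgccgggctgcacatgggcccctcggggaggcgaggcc
HSPA5 (chr9:125241294-125241593, minus strand): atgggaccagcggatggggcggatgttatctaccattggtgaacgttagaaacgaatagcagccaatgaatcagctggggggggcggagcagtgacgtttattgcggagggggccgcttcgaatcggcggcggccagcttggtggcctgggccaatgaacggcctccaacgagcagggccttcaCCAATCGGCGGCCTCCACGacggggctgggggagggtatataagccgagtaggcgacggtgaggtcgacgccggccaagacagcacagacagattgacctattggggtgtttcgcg
HSP90B1 (chr12:103930160-103930459, plus strand): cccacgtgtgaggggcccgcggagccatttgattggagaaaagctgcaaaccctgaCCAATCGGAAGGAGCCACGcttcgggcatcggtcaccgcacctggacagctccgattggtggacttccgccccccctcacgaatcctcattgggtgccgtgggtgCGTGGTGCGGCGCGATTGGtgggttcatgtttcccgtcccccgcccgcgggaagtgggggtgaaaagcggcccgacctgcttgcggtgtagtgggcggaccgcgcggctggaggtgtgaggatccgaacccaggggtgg

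The windows of HSPA1A and HSPA1B, neighbouring copies on chromosome 6, were 92.0% identical over 301 aligned positions. Each held 1 heat shock element match. HSPA8 held 4 overlapping matches of the 2-unit letters, in 2 runs of 3 units. Among the 34 genes, 12 held at least 1 of the 2-unit forms, against 13.7% of all 27305 RefSeq windows of that length. The 3-unit letters, which are GAANNTTC followed by NNGAA or TTCNNGAA followed by NNTTC, occurred in HSPA6, HSPA8 and CHORDC1, against 0.487% of all windows. The ER stress letters occurred in HSPA5 and HSP90B1 alone among the 34, against 0.0806% of all windows, and not in the window of HSPA13, another endoplasmic reticulum chaperone. Both forms of the 2-unit letters read the same on both strands, and they overlap each other within the 3-unit letters. A match describes letters in a window and is not evidence of binding.

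Of the 35 heat shock genes with enough signal to compare, 28 were lower in treated medium, against 50.6% of all genes with such signal. The 5 lowest, HSPA2, HSPA4L, HSPA1B, HSPA1A and HSPA14, are genes of cytosolic HSP70 and HSP110 chaperones and were 2.06-fold to 2.67-fold lower. Among all genes, 3.46% were at least 2-fold lower. The array cannot separate HSPA1A from HSPA1B. Other cytosolic HSP70 and HSP110 genes differed less, with log2 differences of -0.29 for HSPA8 and -0.01 for HSPA1L. The genes of the endoplasmic reticulum chaperones HSPA13, HSPA5 and HSP90B1 were higher, by 1.96-fold, 1.55-fold and 1.20-fold. HSP90B1 was mixed at exon level, with 7 of 11 probe sets higher. This grouping by compartment was made after the values were seen. Of 16 other endoplasmic reticulum chaperone genes with enough signal, 9 were lower. HSF1, the regulator of the heat shock response, was 1.13-fold higher, and HSPB1, a small heat shock protein gene, was 1.07-fold lower.

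Of the 47 genes, 35 had a mean log2 signal over both media of at least 7.17, a floor set at the median of this mean for all probe sets that carry a single symbol. Of these 35, 5 were at least 2-fold lower, where 3.46% of all 12353 genes above the floor were, and 0 were at least 2-fold higher, where 3.22% of all genes were. At 1.5-fold, 7 were lower, against 9.74% of all genes, and 2 were higher, against 9.46%. A total of 28 of the 35 lay below 0, against 50.6% of all genes. The median difference was -0.23 over the 35 genes and -0.01 over all 12353, whose quartiles were -0.26 and 0.25. These shares are descriptions, since genes of a family are not independent.

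**Figure D1:**
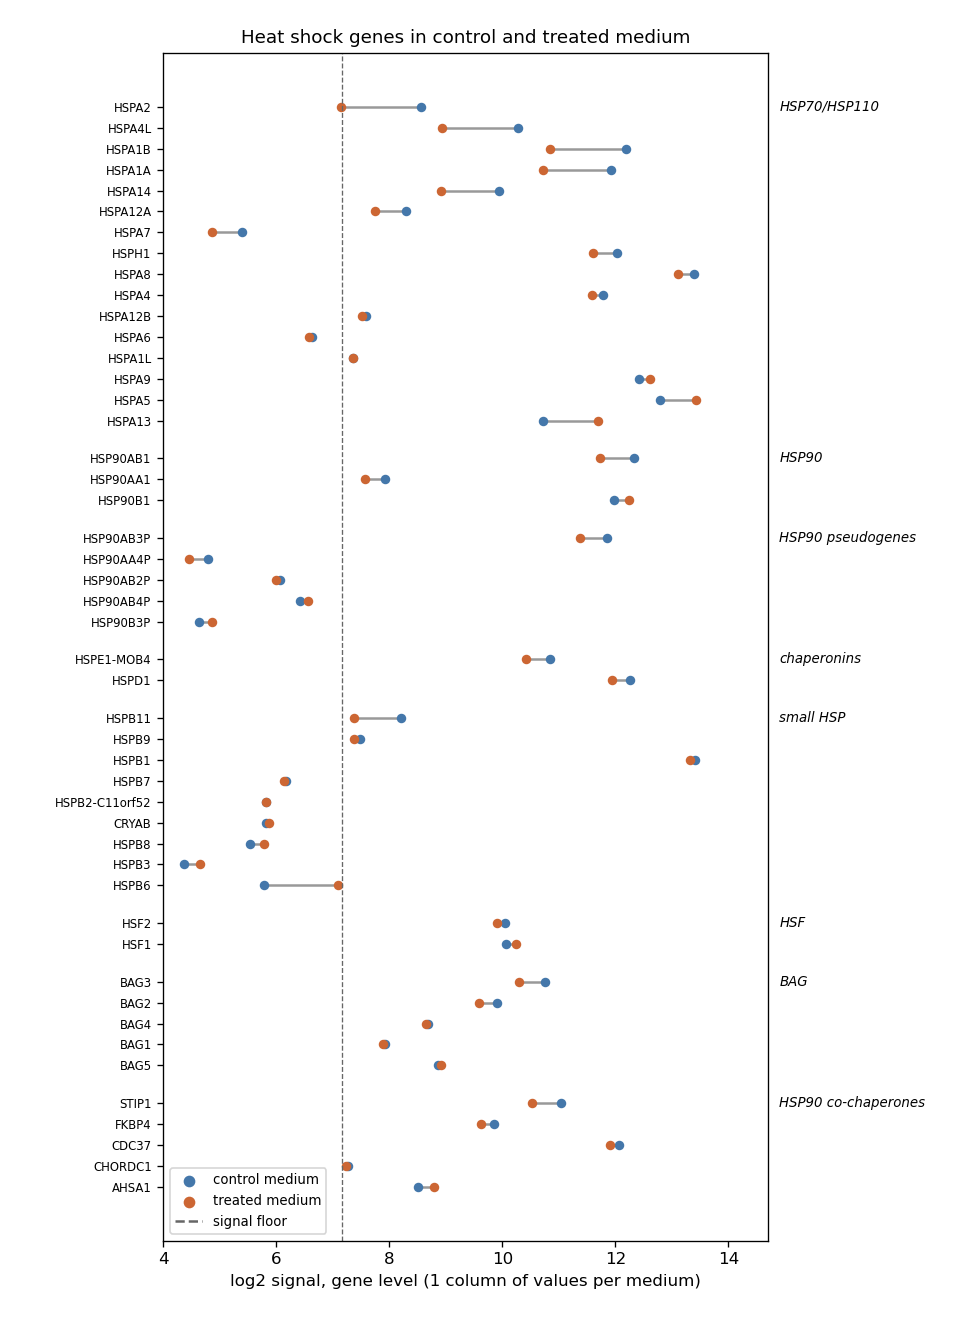
Log2 signal of the 47 heat shock genes in control (blue) and treated (orange) medium, 1 value per medium, grouped by family and joined by a line, with the floor of 7.17 dashed. HSPA2, HSPA4L, HSPA1B and HSPA1A have the longest lines to the left in their family, and HSPA5 and HSPA13 run to the right.

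**Figure D2:**
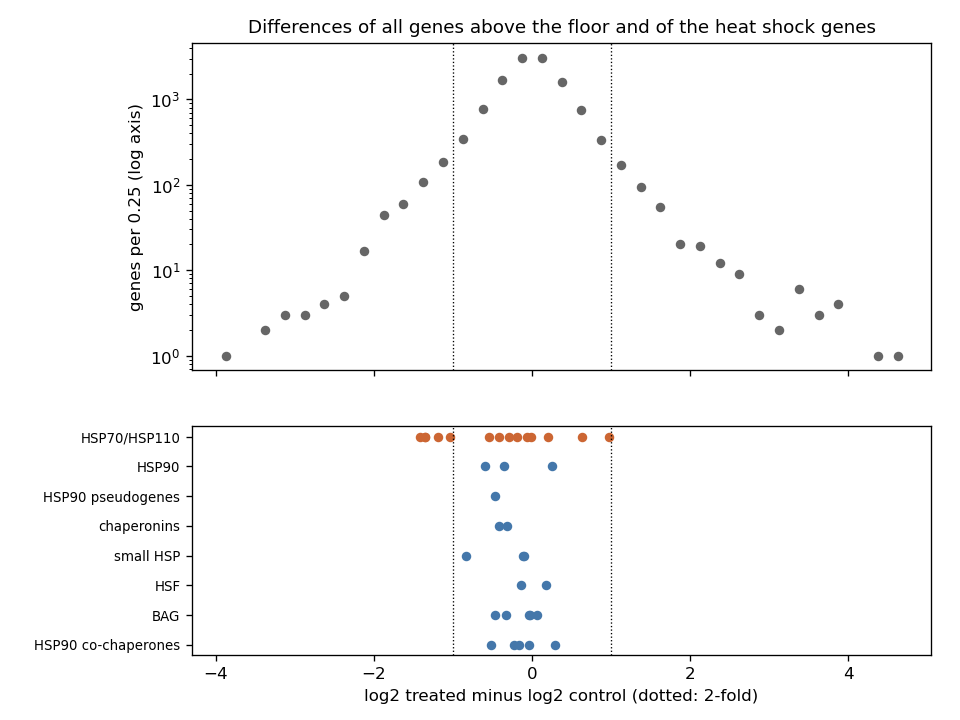
Upper panel, number of genes per interval of 0.25 in the log2 difference, treated minus control, for the 12353 genes above the floor, on a log axis. Lower panel, the 35 heat shock genes above the floor by family, where the 5 genes left of the dotted 2-fold line all belong to the HSP70 and HSP110 family.

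The HSP70 and HSP110 family held every one of the 5 genes past 2-fold, where 3.46% of all genes were at least 2-fold lower. Of its 16 symbols, 14 were above the floor, with a median difference of -0.35. Of these 14, 11 lay below 0, against 50.6% of all genes. HSPA1A and HSPA1B encode the stress-inducible cytosolic HSP70 and are the classic HSF1 targets. HSPA1A gave a log2 signal of 11.92 without and 10.73 with the exposure, a difference of -1.19 (2.29-fold lower). HSPA1B had signals of 12.19 and 10.84, a difference of -1.35 (2.54-fold lower). The array carries 5 transcript clusters under the name HSPA1A and 4 under HSPA1B. Their differences ran from -1.20 to -1.19 and from -1.36 to -1.32, and a cluster that names both genes had -1.22. The 2 genes are near-identical copies, so the array cannot say how much of the signal belongs to either, and the 9 clusters are repeats of the same transcripts. The 5 genes past 2-fold thus count as 2 genes a pair that the array cannot separate.

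HSPA4L and HSPA2 were lower by similar amounts. HSPA4L, an HSP110 protein of the osmotic stress response in mouse kidney, had signals of 10.28 and 8.93, a difference of -1.35 (2.55-fold lower). Its relatives HSPH1 and HSPA4, which serve as nucleotide exchange factors for HSP70, showed smaller differences. HSPH1 had signals of 12.03 and 11.61, a difference of -0.42, and HSPA4 had 11.77 and 11.59, a difference of -0.19. HSPA4L thus stood 201st from the lowest of the 12353 genes, HSPH1 1969th and HSPA4 3879th. HSPA2, an HSP70 form best known from the testis, had signals of 8.55 and 7.14, a difference of -1.41. Its treated signal was under the floor, and set against the floor in place of that signal it was 2.61-fold lower.

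HSPA14, a partner of a ribosome-associated J protein, had signals of 9.95 and 8.91 and a difference of -1.04 (2.06-fold lower), which became -0.99, under 2-fold, with a pseudocount of 32 on the linear scale. HSPA8, the constitutive cytosolic HSP70, had signals of 13.39 and 13.10, a difference of -0.29. HSPA12A, a distant family member, was lower by 1.46-fold at its brighter cluster and by 1.18-fold at the other. HSPA12B (-0.07) and HSPA1L (-0.01), a testis form encoded beside HSPA1A, were close to 0. HSPA6, which is silent without stress in most cells, had signals of 6.63 and 6.58, both under the floor. Its pseudogene relative HSPA7 was also under it, at 5.40 and 4.87.

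The HSP70 genes of the organelles did not share the lower values. HSPA5, the BiP gene, had signals of 12.79 and 13.42, a difference of 0.64 (1.55-fold higher). HSPA13, whose product is associated with microsomes, had signals of 10.72 and 11.69, a difference of 0.97 (1.96-fold higher), just under 2-fold. It was the highest of the 47 genes among those above the floor. HSPA9, the mitochondrial HSP70 mortalin, had signals of 12.42 and 12.62, a difference of 0.20, and its dimmer cluster had 0.23.

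Among the HSP90 genes, the cytosolic forms were lower and the endoplasmic reticulum form was higher. HSP90AB1, the constitutive cytosolic form, had signals of 12.32 and 11.73, a difference of -0.59 (1.51-fold lower), and -0.57, under 1.5-fold, under quantile normalization. HSP90AA1, the inducible cytosolic form, had 7.93 and 7.57, a difference of -0.36. This gene-level signal was dim beside part of its exon-level probe sets, of which the brightest had 13.78 and 13.36. Of 13 counted as described below, 12 were lower. HSP90B1, the GRP94 gene, had 11.98 and 12.24, a difference of 0.26 at gene level. Its exon-level median was smaller, at 0.09. Of the pseudogenes, HSP90AB3P was above the floor, with signals of 11.85 and 11.38 and a difference of -0.47. It is a copy of HSP90AB1, and how far its probes read HSP90AB1 RNA was not tested. HSP90AA4P (-0.33), HSP90AB2P (-0.06), HSP90AB4P (0.14) and HSP90B3P (0.22) were under the floor in both media.

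Both mitochondrial chaperonin genes were slightly lower. HSPD1, which encodes HSP60, had signals of 12.25 and 11.93, a difference of -0.32. HSPE1, its HSP10 partner, is listed here under the readthrough symbol HSPE1-MOB4, with signals of 10.84 and 10.43 and a difference of -0.41. The gene-level value of that cluster does not separate signal of HSPE1 from that of MOB4. Its exon-level probe sets differed among themselves. Of the 15 counted as described below, 13 were lower, and the 15 ranged from -1.33 to 0.17. Which of the 2 genes each probe set reads was not determined.

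Only 3 of 9 small heat shock symbols were above the floor. HSPB1, which encodes HSP27, had signals of 13.41 and 13.31, a difference of -0.10. HSPB11 had 8.21 and 7.37, a difference of -0.83 (1.78-fold lower). Its current RefSeq symbol is IFT25, a subunit of the intraflagellar transport complex, and it is not a chaperone by its best-known role. HSPB9, a testis form, had a difference of -0.11. HSPB6 had signals of 5.78 and 7.09, both under the floor, and the difference of 1.31 at this low signal was the highest of the 47. The others under the floor were CRYAB (0.05), the alpha-B crystallin gene, HSPB3 (0.27), HSPB7 (-0.04), HSPB8 (0.25) and the readthrough symbol HSPB2-C11orf52 (0.00).

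The regulators and co-chaperones came next. HSF1, the main activator, had signals of 10.06 and 10.24, a difference of 0.18. HSF2, a second factor that can pair with HSF1, had 10.04 and 9.90, a difference of -0.14. HSF1 is controlled mainly at the protein level, by trimer formation and phosphorylation, which an array of RNA does not measure. Of the 5 BAG genes, 0 passed 1.5-fold in either direction, where 19.2% of all genes did, so that a count of 0 in 5 does not set them apart. BAG3, itself an HSF1 target that directs clients to autophagy, had signals of 10.75 and 10.29, a difference of -0.46. BAG2, an inhibitor of the ubiquitin ligase CHIP, was lower by 1.25-fold, and BAG1 (-0.02), BAG4 (-0.04) and BAG5 (0.06) lay close to 0.

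Of the 5 HSP90 co-chaperone genes, 0 passed 1.5-fold, which against the same 19.2% does not set them apart either. STIP1, the HSP70 to HSP90 adaptor, had signals of 11.04 and 10.52, a difference of -0.52 (1.44-fold lower). FKBP4, an immunophilin of steroid receptor complexes, had 9.85 and 9.62. CDC37, which brings kinases to HSP90, had 12.06 and 11.90. AHSA1, which speeds the HSP90 ATPase, was the only one of the 5 above 0, with signals of 8.50 and 8.79 and a difference of 0.29. CHORDC1 had 7.27 and 7.23, close to the floor.

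The exon-level table gave a view inside each gene. Its probe sets were tied to a gene by their ID number, between that of its transcript cluster and the next, because no table used here pairs them. Over 26802 clusters with at least 3 such probe sets, the Spearman correlation across clusters of their median control signal with the gene-level signal was 0.979, and 0.236 with that of the next interval. The 5391 IDs found in both tables held identical values, so the exon-level columns were not used as replicates. Probe sets with a mean signal of at least 7.34, the exon-level median, were counted.

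All 18 counted probe sets of HSPA4L lay below 0, from -1.72 to -0.38, and all 5 of HSPA2, from -2.05 to -1.01. Of HSPA14, 16 of 17 were lower. HSPA1A had 10 of 11 lower and HSPA1B 5 of 6, and the higher one was 0.53 in HSPA1A and 0.38 in HSPA1B. In the other direction, 10 of 10 probe sets of HSPA5 were higher, from 0.41 to 1.43, and 7 of 7 of HSPA13, from 0.84 to 1.41. HSP90B1 was mixed, with 7 of 11 higher. Of 34 heat shock genes above the floor with counted probe sets, 33 had more than 50% of them on the side of the gene-level value, and 27 had at least 80%. Both levels may summarise the same hybridisation. The exon-level median equalled the gene-level value for several genes, among them HSPA4L (-1.35), STIP1 (-0.52), HSPH1 (-0.42) and HSF1 (0.18). Such counts therefore describe the spread within a gene and are no independent check of its direction. HSPA12B, at -0.07, had 5 of 8 higher. The others under 80% were BAG1, BAG4, BAG5, HSPA1L, CHORDC1 and HSP90B1, and BAG1 had 6 lower and 5 higher. Among genes with intermediate differences, HSPH1 had 20 of 20 lower, STIP1 14 of 14, HSPA8 22 of 23 and HSPA4 18 of 20, while HSF1 had 11 of 13 higher and HSPA9 18 of 22. The exon-level table held no probe set in the interval of HSP90AB1.

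**Figure D3:**
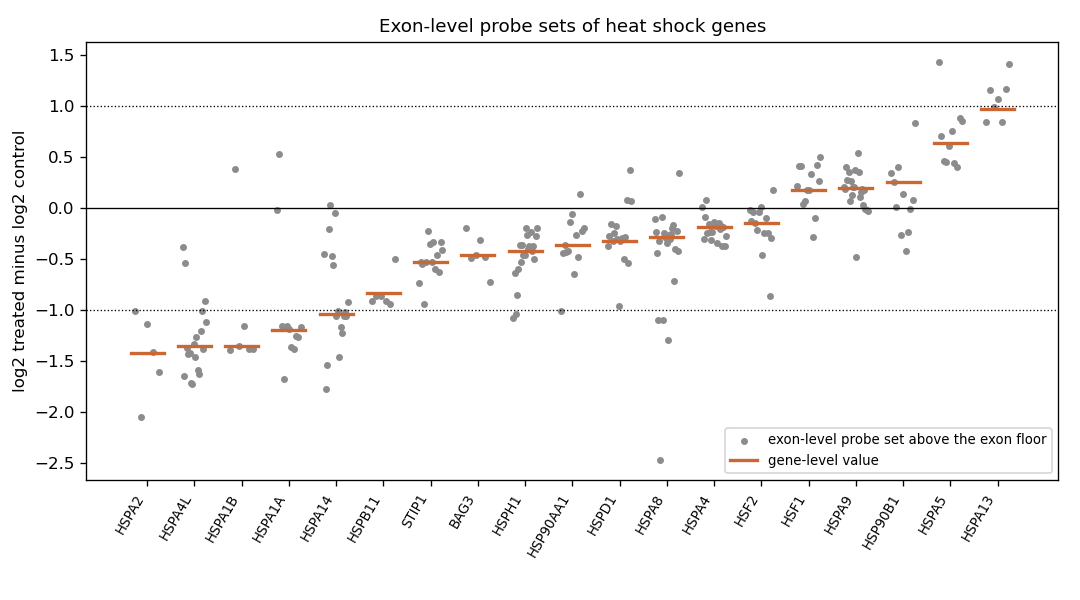
Log2 difference, treated minus control, of each exon-level probe set with a mean signal of at least 7.34 (grey points) and of the gene-level value (orange bar) for 19 heat shock genes, ordered by gene-level value. The points of HSPA4L and HSPA2 all lie below 0 and those of HSPA5 and HSPA13 all above it, while the points of HSP90B1 lie on both sides.

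Arranged by the compartment in which the proteins work, the HSP70, HSP110, HSP90 and chaperonin genes fell on different sides of 0. This grouping was made after the values were seen, and 50.6% of all genes lay below 0. The distant family members HSPA12A (-0.54) and HSPA12B (-0.07) were above the floor but were left out of this grouping. Of 11 genes placed in the cytosol and nucleus and above the floor, 11 lay below 0, with a median of -0.59 and a range from -1.41 to -0.01. The one nearest 0, HSPA1L, was slightly above it under quantile normalization (0.003) and under centring over genes above the floor (0.006). Of the 3 endoplasmic reticulum genes, 3 lay above 0, from 0.26 to 0.97. Of the 3 mitochondrial genes, 2 lay below 0, near the share of all genes, with a median of -0.32.

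Heat shock element letters were set beside the differences of the 29 genes that had a promoter window and were above the floor. Of the 8 with either 2-unit form, 7 lay below 0, 2 were at least 2-fold lower and the median was -0.19. Of the 21 without, 16 lay below 0, 2 were at least 2-fold lower and the median was -0.32. With the form GAANNTTC alone, 7 of 7 genes with a match lay below 0, with a median of -0.29 and 2 of them at least 2-fold lower. Those 2, here and among the 8, are HSPA1A and HSPA1B, whose signals the array cannot separate. The 7 also include HSPA1L (-0.01) and CHORDC1 (-0.04), both close to 0. Of all genes above the floor, 50.6% lay below 0 and 3.46% were at least 2-fold lower. Of the 22 genes without that form, 16 lay below 0, with a median of -0.25 and 2 at least 2-fold lower. HSPA4L and HSPA2 had no match in these windows, and no window was found for HSPA14. BAG3, described above as an HSF1 target, and HSP90AA1, the inducible cytosolic HSP90 gene, had no match either. The split therefore does not separate genes under HSF1 control from the others. The 2 genes with the ER stress letters, HSPA5 and HSP90B1, were both above 0, as were 49.2% of all genes, and HSPA13, the highest of the 3 endoplasmic reticulum genes, had no match in its window.

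Related lists were counted in the same way, against 50.6% of all genes below 0 and 9.74% at least 1.5-fold lower. The cytosolic chaperonin TRiC, which folds actin and tubulin, and its delivery complex prefoldin had 12 of 14 genes below 0 and a median of -0.27. CCT3 (-0.66), VBP1 (-0.50) and TCP1 (-0.48) were the lowest, 1 gene was at least 1.5-fold lower, near the share of all genes, and PFDN2 (0.32) was the highest. Of 15 other HSP90 and HSP70 partners above the floor, 10 lay below 0 with a median of -0.26, a count not far from the share of all genes. FKBP5, an immunophilin of the glucocorticoid receptor, was 1.75-fold lower, SUGT1, a co-chaperone of kinetochore assembly, 1.61-fold lower, and FNIP1, a folliculin partner that slows the HSP90 ATPase, 1.55-fold higher.

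Of 16 other endoplasmic reticulum chaperone genes above the floor, 9 lay below 0, near the 50.6% of all genes, and the median was -0.07. DNAJB9 (2.01), a J protein partner of HSPA5, and HERPUD1 (1.62), a component of protein disposal, were the 2 at least 2-fold higher, where 3.22% of all genes were. HYOU1, the HSP110 form of the same compartment, was 1.22-fold higher. SDF2L1 (-0.74) and CALR (-0.44), the calreticulin gene, were lower.

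Among 12 mitochondrial chaperone and protease genes the median was -0.11, and 7 lay below 0, near the 50.6% of all genes. GRPEL2, a nucleotide exchange factor of HSPA9, was 1.89-fold higher and the protease gene LONP1 1.60-fold higher. These were the 2 at least 1.5-fold higher, where 9.46% of all genes were. CLPX (0.55) was the next highest. TRAP1, the mitochondrial HSP90, was lowest at -0.46. Of 12 genes tied to HSF1 control, 5 lay below 0 and 7 above it, with a median of 0.13. PLK1 (-1.74) was at least 2-fold lower, where 3.46% of all genes were, and RPA1 (-0.83) was the next lowest. PLK1 is foremost a mitotic kinase and RPA1 a replication protein, and neither is specific to heat shock control. HSBP1, which binds HSF1 trimers, had a difference of -0.30. HSF2BP, a testis protein that binds HSF2, had 0.72, with a control signal of 6.89, under the floor. EP300 (0.39) and SIRT1 (0.38) were also higher.

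**Figure D4:**
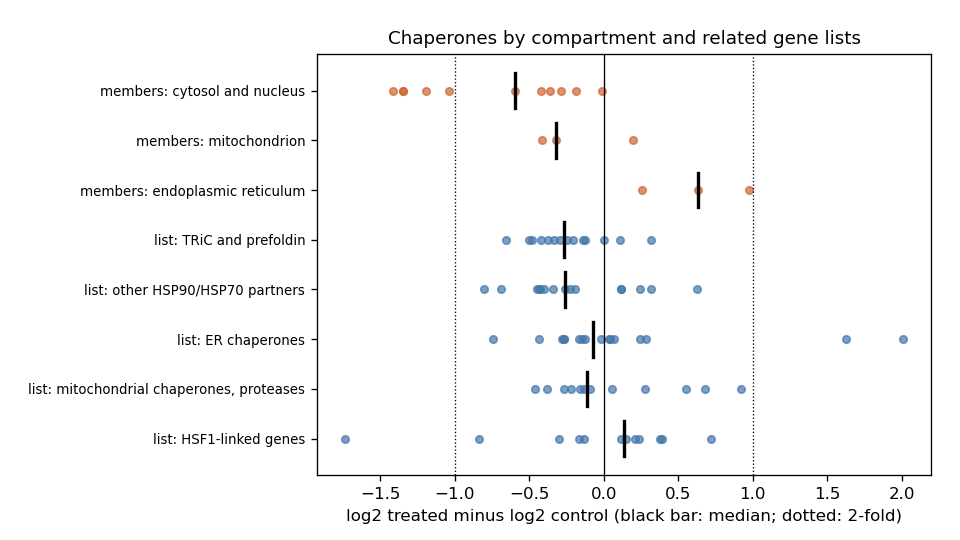
Log2 difference, treated minus control, of chaperone genes above the floor by compartment (orange points) and of genes in 5 related lists (blue points), with the median of each row as a black bar. All 11 genes placed in the cytosol and nucleus lie below 0, with HSPA1L at -0.01, and the 3 endoplasmic reticulum genes lie above it. In the wider endoplasmic reticulum list, 9 of 16 genes lie below 0. HSPA12A and HSPA12B are not shown.

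Markers of the cell line were read in the same columns. VIM and AXL, which MDA-MB-231 is known to express, had signals of 11.04 and 12.73 in control and 11.02 and 12.54 in treated medium. The other markers listed as expressed, CD44 (-0.30), CAV1 (-0.50), KRT18 (-0.13) and MET (0.07), were above the floor. Of the 6 genes that the line is known to lack or to hold at a low level, the receptor genes ESR1 and PGR and the cadherin gene CDH1 (0.48) were under the floor. ERBB2 was above it, with signals of 9.05 and 8.41 and a difference of -0.64, and so was EPCAM, with 7.70 and 7.26. ESRP1, an epithelial splicing regulator, went against its place in that list in treated medium, with signals of 6.61 and 9.58 and a difference of 2.96. Of 12 leukocyte, endothelial, fibroblast and erythroid markers, 2 were above the floor, and the 12 ranged from 3.63 to 7.79 in control and from 3.69 to 7.80 in treated medium. The part of any of these markers in the differences of the heat shock genes was not tested.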

How the data were processed

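The authors deposited log2 signal for 53617 gene-level and 352859 exon-level probe sets. RMA and Affymetrix Expression Console are named for it, per the submitters' processing notes, with versions and genome build not given in the sources used here. Since RMA sets the probe intensities of arrays to 1 distribution before they are summarised, a shift shared by most genes cannot be seen. The deposited gene-level columns still differed slightly, with medians of 6.33 in control and 6.31 in treated medium. Gene symbols came from the authors' deposited sheet, which per the file headers also holds a control over treated ratio. That ratio and 2 further columns of values, whose headers name no sample, were not used.

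A single symbol stood on 25937 gene-level probe sets, several on 3221 and none on 24459. Where a symbol had several clusters, the brightest on average was taken. Current names came from RefSeq (GRCh38.p14), by accession, symbol or older symbol. Differences are log2 treated minus log2 control, computed with Python 3.11.15 and pandas 2.3.3. Counting was tested on simulated data. With 1 column per medium no test was possible, and the number of arrays limits the precision.

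Every gene of the set is named. Those above the floor and past 1.5-fold, and 8 fixed genes, are described in full, and up to 6 genes are named per related list. The genes and lists were chosen with earlier results of these data known. Alternatives covered normalization, floor, cluster choice, pseudocount and, added after the files were seen, exon-level medians and omission of pseudogenes. Protein comparison was not made here.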

Additional observations from a re-analysis of the deposited data

How the results depend on the processing

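No paired analysis was possible because each medium has 1 column of values, and for the same reason no replicate could be left out. The 5 genes at least 2-fold lower were 5 under median centring, quantile normalization, centring over genes above the floor, cluster means and exon-level medians, and 4 with a 75th percentile floor, a floor in both media or a pseudocount of 32. In place of 7 genes at least 1.5-fold lower there were 6 under quantile normalization and centring over genes above the floor, which left HSP90AB1 just under the limit (-0.57 and -0.58), 6 with a floor in both media or exon-level medians, and 5 with the 75th percentile floor. Without a floor, HSPB6 made 1 gene at least 2-fold higher and the median of the 47 genes was -0.11. Under the 75th percentile floor, 196 of all genes were at least 2-fold higher and 265 lower, with fewer genes tested, and the HSP90 median was -0.17. It was -0.14 with exon-level medians, which have no value for HSP90AB1. The 2-fold call of HSPA14 was lost with the pseudocount of 32 (-0.99). Of 277 values of single genes under other settings, 261 moved by at most 0.1 and 16 by more, and 0 of those past 1.5-fold changed sign. Some genes close to 0 did change sign under at least 1 setting. Above the floor these were HSPA1L (up to 0.01), BAG4 (up to 0.002) and HSPA12B (up to 0.02), all counted among the 28 genes below 0. Under the floor they were HSPA6 (up to 0.02) and HSPB2-C11orf52 (up to 0.03). The planned exon-level alternative needed a table that ties probe sets to genes and was not run in that form.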
